A study of Mus musculus with 2 samples.

Results

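The cells described here are neurons of the embryonic mouse forebrain that carried RNA of Meis2 together with Sp8 or Tshz1, the transcription factor genes that mark neurons born in the dorsal part of the lateral ganglionic eminence. They were selected on measured UMI counts (a UMI is a molecule tag, so each counts 1 captured RNA). A member had at least 2 UMIs of Sp8 and Tshz1 together, at least 2 of Meis2 and at least 2 of Dlx1, Dlx2 and Dlx6os1 together. It had at most 1 UMI of Prox1 and Adarb2, at most 1 of Isl1 and Ebf1, at most 1 of the division genes Top2a, Mki67 and Cdk1, and 0 of Lhx6. This rule found 441 members among 21941 called cells, 308 of them in the library labelled Cyfip2 knockout and 133 in the wild-type library. Forebrains were taken at embryonic day 18.5, and each library came from 2 forebrains of 1 genotype combined before dissociation with papain. Which part of Cyfip2 was deleted, the strain and the sex of the embryos were not given in the sources used here. With 1 library per group no difference has a replicate check, all intervals are at 95% and reflect counting error alone (neither UMIs within a cell nor cells within an embryo are independent), and embryo, dissection, library and genotype cannot be told apart.

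Neurons of the forebrain that use GABA arise from the ganglionic eminences, where Dlx factors drive their differentiation. The dorsal lateral eminence sends cells to the olfactory bulb, where they become interneurons of the granule and glomerular layers, and to the intercalated cell masses of the amygdala. Sp8 is known for the olfactory bulb lineage, Tshz1 for both olfactory and intercalated neurons, and the homeobox factor Meis2 for lateral eminence derivatives in general, including projection neurons of the striatum.

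The genes of the rule chose the members, so their levels are a description. Levels are CPM, the summed UMIs of a gene scaled to all UMIs of the same cells. Sp8 was at 149 CPM in the knockout-labelled members and 154 CPM in the wild-type members, Tshz1 at 391 and 411 CPM, and Meis2 at 3234 and 3174 CPM. The median member had 22 UMIs of Meis2 in both libraries, and only 2 and 0 members lay at the threshold of 2 UMIs of Meis2, with 4 and 1 cells just below it. The threshold on Sp8 and Tshz1 divided a continuum: 100 knockout-labelled and 43 wild-type members had exactly 2 UMIs of the pair, and 181 and 79 cells that met every other term had exactly 1. Cells just inside and just outside were alike in part. Six3 was at 632 and 601 CPM inside in the knockout-labelled and wild-type libraries, and at 453 and 555 CPM outside. Etv1 was at 129 and 88.8 CPM inside and at 105 and 38.3 CPM outside.

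The libraries held 150828048 and 123978461 UMIs, with 12855 knockout-labelled and 9086 wild-type called cells. Members had medians of 6465 and 6746 UMIs per cell. The libraries shared 32 cell barcodes, which 3 knockout-labelled and 1 wild-type members carried. Scrublet scores marked 37 of the 308 knockout-labelled and 6 of the 133 wild-type members as likely doublets, against 10.3% and 7.26% of all called cells. Members with at least 3 UMIs of the excitatory neuron genes Neurod2, Neurod6, Slc17a6 and Slc17a7 numbered 38 and 9, of which 28 and 3 were marked by Scrublet. These cells were kept, and leaving them out ended several of the calls given below.

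Markers divided the members, and the label held for only some of them. The members were split exactly by the 2 genes of the rule into cells with Sp8 and no Tshz1 UMI (Sp8-only), cells with both, and cells with Tshz1 and no Sp8 UMI (Tshz1-only). In the knockout-labelled library these arms held 58 (18.8%), 81 (26.3%) and 169 (54.9%) members, and in the wild-type library 22 (16.5%), 35 (26.3%) and 76 (57.1%). Because a cell with few UMIs can miss a gene it uses, the arms are ranges of a count and not cell types. Sp8-only members carried genes of the olfactory interneuron lineage, whereas Tshz1-only members carried genes known from projection neurons of the striatum, so below the arms are called by these counts.

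The split held at equal depth for Etv1 and Six3, with the arms still defined on unthinned counts. With each member thinned to 2000 UMIs, an Etv1 UMI was found in 49.6% of Sp8-bearing members of the knockout-labelled library and 7.05% of Tshz1-only members, and in 43.6% and 6.85% of the same groups in wild type (unthinned, 67.6% and 12.4%, and 61.4% and 14.5%). A Six3 UMI was found in 14.3% of Sp8-bearing and 55.1% of Tshz1-only members of the knockout-labelled library, and in 23.6% and 56.2% in wild type (unthinned, 22.3% and 69.8%, and 28.1% and 72.4%). Excitatory cells, taken as the background, had an Etv1 UMI in 3.73% of knockout-labelled and 2.85% of wild-type thinned cells and a Six3 UMI in 0.698% and 0.277%. Penk and Foxp2 separated less in thinned members. A Penk UMI was found in 2.26% of Sp8-bearing and 11.5% of Tshz1-only knockout-labelled members, and in 5.45% and 5.48% in wild type. For Foxp2 the shares were 27.1% and 35.3% in the knockout-labelled library, and 30.9% and 47.9% in wild type.

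Between the arms, 4076 genes could be measured in both libraries. Of these, 25 (0.613%) were at least 2-fold higher in Sp8-only members in both libraries, with both counting intervals leaving out equality, and 57 (1.40%) were at least 2-fold higher in Tshz1-only members. In the middle group with both RNAs, 56 of these 82 genes lay between the other 2 arms in both libraries. The arms of the 2 libraries are of 2 genotypes and are no replicates of each other.

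Genes higher in the Sp8-only arm included 4 of 8 measured genes of the olfactory interneuron lineage, among them Etv1, Pax6 and Calb2, and 0 of the 8 were lower. The median log2 ratio of that list, Sp8-only over Tshz1-only, was 1.89 in the knockout-labelled and 1.28 in the wild-type library, against -0.02 and -0.06 for all measured genes. The olfactory list was also high in Prox1 Adarb2 cells and Lhx6 cells, groups with Dlx RNA described below. Its summed level in the knockout-labelled library was 2320 CPM in Sp8-only members, 1887 CPM in Prox1 Adarb2 cells and 1565 CPM in Lhx6 cells. In wild type the sums were 2927, 2113 and 1614 CPM. Etv1, an ETS factor of olfactory bulb interneurons, was at 281 CPM in Sp8-only and 46.3 CPM in Tshz1-only members of the knockout-labelled library, and at 291 and 42.2 CPM in wild type. Its log2 ratios were 2.60 (2.16 to 3.06) and 2.79 (2.05 to 3.57). Pax6, a paired box factor needed for dopaminergic cells of the bulb, was at 113 CPM in Sp8-only and 18.7 CPM in Tshz1-only members of the knockout-labelled library, and at 149 and 33.0 CPM in those arms of wild type. In that wild-type arm 14 of the 25 Pax6 UMIs came from 1 cell.

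Calb2, the calcium-binding protein calretinin, was at 76.8 CPM in Sp8-only and 3.74 CPM in Tshz1-only members of the knockout-labelled library. In wild type it was at 286 and 1.83 CPM, but 47 of the 48 UMIs came from 1 cell. The wild-type level of Calb2 therefore describes that cell. Ccnd2, a D-type cyclin that immature neurons of this lineage retain, was at 3776 CPM in Sp8-only and 581 CPM in Tshz1-only members of the knockout-labelled library, and at 4384 and 1782 CPM in those arms of wild type. The other named genes with the largest ratios were S100a10, Atp1b1 (a subunit of the sodium pump), Tiam2 (an exchange factor for Rac), Grip1 (a scaffold of glutamate receptors), Pfn2 (a profilin that binds actin), the RNA-binding protein gene Elavl4 and Zfp618. Th, which encodes tyrosine hydroxylase and marks dopaminergic cells of the bulb, had 0 UMIs in Sp8-bearing members of the knockout-labelled library and 1 in wild type.

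**Figure D1:**
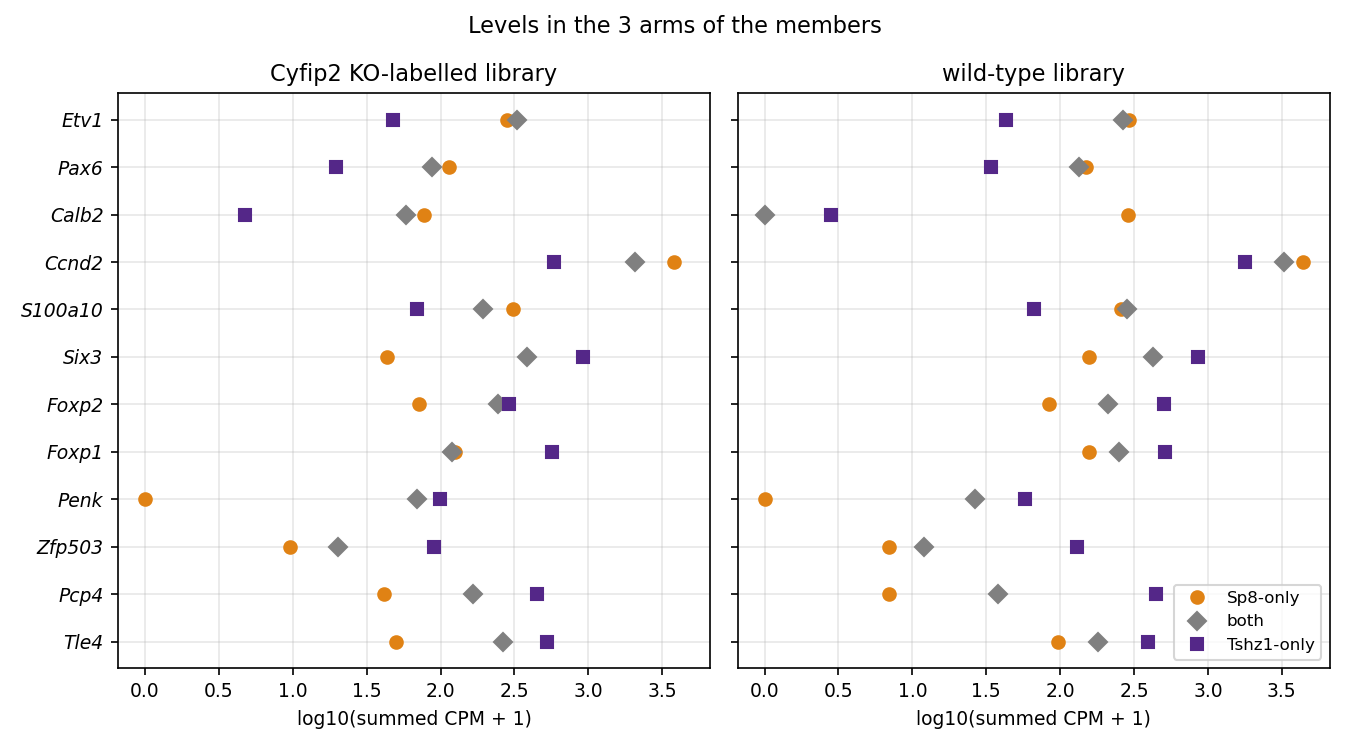
Levels of 12 genes in the arms of the members, as log10 of summed CPM plus 1, in the Cyfip2 KO-labelled library (left) and the wild-type library (right). Circles are Sp8-only, diamonds both and squares Tshz1-only members. Etv1, Pax6 and Ccnd2 lie to the right in Sp8-only members, and Six3, Foxp1, Penk and Zfp503 in Tshz1-only members; Penk had 0 UMIs in the Sp8-only arm of both libraries, and the wild-type Calb2 value of that arm comes almost wholly from 1 cell.

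Tshz1-only members were higher for 5 of 6 measured striatal projection neuron markers (among them Bcl11b, Zfp503, Six3 and Foxp1) and for 3 of 4 measured genes of the intercalated amygdala list (Foxp1, Foxp2 and Penk), and 0 genes of either list were lower there. The striatal list had median log2 ratios, Sp8-only over Tshz1-only, of -2.80 in the knockout-labelled and -2.09 in the wild-type library. The intercalated list had -2.11 and -1.70, with Penk entered at its bound. Foxp1 is on both lists, so their counts overlap. The intercalated list was also high in Isl1 Ebf1 cells, a group of neurons with Dlx RNA described below. Its summed level in the knockout-labelled library was 1154 CPM in Tshz1-only members and 1250 CPM in Isl1 Ebf1 cells. In wild type the sums were 1281 and 1586 CPM. Foxp2, a forkhead factor of intercalated and striatal neurons, was at 70.4 CPM in Sp8-only and 288 CPM in Tshz1-only members of the knockout-labelled library, and at 83.3 and 502 CPM in wild type. Foxp1 was at 124 CPM in Sp8-only and 567 CPM in Tshz1-only members of the knockout-labelled library, and at 155 and 511 CPM in those arms of wild type. Zfp503, a zinc finger factor of striatal neurons, was at 8.53 CPM in Sp8-only and 89.7 CPM in Tshz1-only members of the knockout-labelled library, and at 5.95 and 128 CPM in those arms of wild type.

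Penk, which encodes the precursor of enkephalin, had 0 UMIs in the Sp8-only arm of both libraries, against 131 UMIs (97.9 CPM) in knockout-labelled and 31 UMIs (56.8 CPM) in wild-type Tshz1-only members. With a floor of 3 counts in the Sp8-only arm it was at least 15.3-fold lower there in the knockout-labelled and at least 3.18-fold lower in the wild-type library. Drd2 and Adora2a, which with Penk are known from the indirect pathway neurons of the striatum, had too few UMIs to be measured in every arm. Drd2 had 67 UMIs (50.1 CPM) in knockout-labelled and 20 (36.7 CPM) in wild-type Tshz1-only members, and 2 and 0 UMIs in Sp8-only members. Adora2a had 63 UMIs (47.1 CPM) in knockout-labelled and 13 (23.8 CPM) in wild-type Tshz1-only members; in Sp8-only members it had 2 UMIs (4.26 CPM) and 5 UMIs (29.7 CPM), so the arms did not separate for Adora2a in wild type. Drd1 and Tac1, genes of the direct pathway, had 9 and 0 UMIs in knockout-labelled and 6 and 1 in wild-type Tshz1-only members. The rule allows at most 1 UMI of Isl1 and Ebf1, genes of the direct pathway, and so could leave out such cells.

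The other named genes of the Tshz1-only arm were Pcp4 (a regulator of calmodulin), Zfp467, Lypd1, Gucy1b1 (a subunit of soluble guanylate cyclase), Atxn1, Gria1 (a subunit of AMPA receptors), the co-repressor gene Tle4, and Six3 with its neighbour Six3os1. Six3, a homeobox factor required for striatal neurons of the indirect pathway, was at 42.6 CPM in Sp8-only and 918 CPM in Tshz1-only members of the knockout-labelled library, a log2 ratio of -4.43 (-5.14 to -3.79). In wild type it was at 155 and 850 CPM, a log2 ratio of -2.46 (-3.09 to -1.89), and 17 of the 26 Sp8-only UMIs came from 1 cell. Six3os1, a long noncoding RNA on the opposite strand, was at 12.8 CPM in Sp8-only and 263 CPM in Tshz1-only members of the knockout-labelled library, and at 65.4 and 286 CPM in those arms of wild type, where all 11 Sp8-only UMIs came from 1 cell. The genes overlap on chromosome 17 in GENCODE M21 (GRCm38, the build of mm10), Six3 from 85613608 to 85629302 on the plus strand and Six3os1 from 85600651 to 85618398 on the minus strand. The counting's strand setting was not given in the sources used here, so reads of the pair cannot be told apart.

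The RefSeq start sites of Six3 and Six3os1 lie 2438 bases apart and point away from each other, and the windows around them are shown because both RNAs were higher in the same arm. Each window runs from 250 bases before to 50 bases after the start, on the strand of its gene, in GRCm38.p6. The Six3 window lies at chr17:85620584-85620883 (plus strand) and the Six3os1 window at chr17:85618347-85618646 (minus strand). Capitals mark TGACAG, a core that Meis proteins bind, and GGGCGG, the GC box that Sp proteins bind, on either strand. TGACAG was in 19.1% and GGGCGG in 35.9% of 32544 such windows, so a match describes the letters only. The Six3 window held 1 TGACAG and 0 GC boxes, and the Six3os1 window 0 and 1.
Six3: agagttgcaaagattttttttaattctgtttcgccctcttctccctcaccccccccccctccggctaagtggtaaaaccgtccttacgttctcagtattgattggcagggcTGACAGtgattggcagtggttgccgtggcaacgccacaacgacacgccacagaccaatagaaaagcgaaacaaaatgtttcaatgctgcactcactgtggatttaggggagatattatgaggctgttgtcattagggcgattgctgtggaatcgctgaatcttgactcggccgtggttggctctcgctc
Six3os1: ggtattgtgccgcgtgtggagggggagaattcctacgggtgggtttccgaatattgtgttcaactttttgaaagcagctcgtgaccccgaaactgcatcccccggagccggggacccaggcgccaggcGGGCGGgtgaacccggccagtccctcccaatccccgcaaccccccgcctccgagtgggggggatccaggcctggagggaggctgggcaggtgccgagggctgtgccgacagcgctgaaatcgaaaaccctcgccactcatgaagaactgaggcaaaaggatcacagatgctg

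Among named genes, Six3os1 and Six3 had the largest ratios of the members over 3 other groups of neurons with Dlx RNA. The comparison was made with Isl1 Ebf1 cells (490 knockout-labelled and 219 wild-type), Prox1 Adarb2 cells (487 and 277) and Lhx6 cells (699 and 559), which by the rule hold no member. Of 3174 genes outside the rule with at least 50 CPM in members of both libraries, 12 (0.378%) were at least 1.5-fold higher in members than in each of the 3 groups in both libraries, 2 of them transcripts without a gene name. No test was made, since cells are not replicates. The other 10 were Six3os1, Six3, Mpped2, Pcp4, Tle4, Flrt2, Sox2, Cdca7, Zfhx4 and Hmgb2. Several were not high in every arm. Pcp4 in Sp8-only members was at 40.5 CPM in the knockout-labelled and 5.95 CPM in the wild-type library, below 163 and 136 CPM in Isl1 Ebf1 cells. Tle4 and Zfhx4 in Sp8-only members also lay below Isl1 Ebf1 cells in both libraries. Cdca7 in knockout-labelled Tshz1-only members, at 111 CPM, lay below the Prox1 Adarb2 cells at 133 CPM.

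Six3 was at 617 CPM in knockout-labelled members, against 149 CPM in Isl1 Ebf1, 179 CPM in Prox1 Adarb2 and 8.23 CPM in Lhx6 cells. In wild type it was at 613 CPM in members, against 178, 185 and 18.0 CPM in the same groups. The level was not uniform, since Sp8-only members, at 42.6 CPM in the knockout-labelled and 155 CPM in the wild-type library, lay below the Isl1 Ebf1 cells. Nor did Six3 mark off the members from their nearest neighbours: the 481 knockout-labelled and 241 wild-type cells that met every other term of the rule with 0 UMIs of Sp8 and Tshz1 had 443 and 546 CPM. Mpped2, a metallophosphoesterase gene, was at 1266 CPM in knockout-labelled members and at 465, 621 and 494 CPM in those groups, and at 1401 CPM in wild-type members against 464, 670 and 495 CPM. It was high in every arm, from 827 CPM in Sp8-only to 1463 CPM in members with both RNAs of the knockout-labelled library. Sox2, a factor of neural progenitors that olfactory lineage cells retain, was at 694 CPM in knockout-labelled members and 899 CPM in wild-type members, against at most 512 CPM in any of the 3 groups in either library. Sox2 was not highest in the Sp8-only arm. Sp8-only members had 478 CPM in the knockout-labelled and 880 CPM in the wild-type library, and Tshz1-only members 809 and 1001 CPM. Pou3f4 and Sp9, next in rank, were below 1.5-fold against at least 1 group.

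Members were a larger share of the knockout-labelled library. They made up 2.40% of its called cells (308 of 12855, exact interval 2.14 to 2.68) and 1.46% of those of the wild-type library (133 of 9086, 1.23 to 1.73), a ratio of 1.64 (1.33 to 2.02). Part of this difference was shared by Dlx cells as a whole: among Dlx cells outside division the shares were 9.80% of 3144 in the knockout-labelled and 7.52% of 1768 in the wild-type library, a ratio of 1.30 (1.06 to 1.61). Without the members with at least 3 excitatory UMIs that ratio was 1.22 with an interval from 0.986 to 1.53, which includes 1. With each cell thinned to 4000 UMIs, which left out 2826 and 1514 shallower cells, the shares of all cells were 1.70% in the knockout-labelled and 1.02% in the wild-type library. Isl1 Ebf1 cells had a ratio of 1.58 (1.35 to 1.86) among all cells and 1.26 (1.07 to 1.48) among Dlx cells, Prox1 Adarb2 cells 1.24 and 0.989, and Lhx6 cells 0.884 and 0.703. Fewer captured cells of a type and a different dissection of the forebrain cannot be told apart with 1 pool per genotype.

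**Figure D2:**
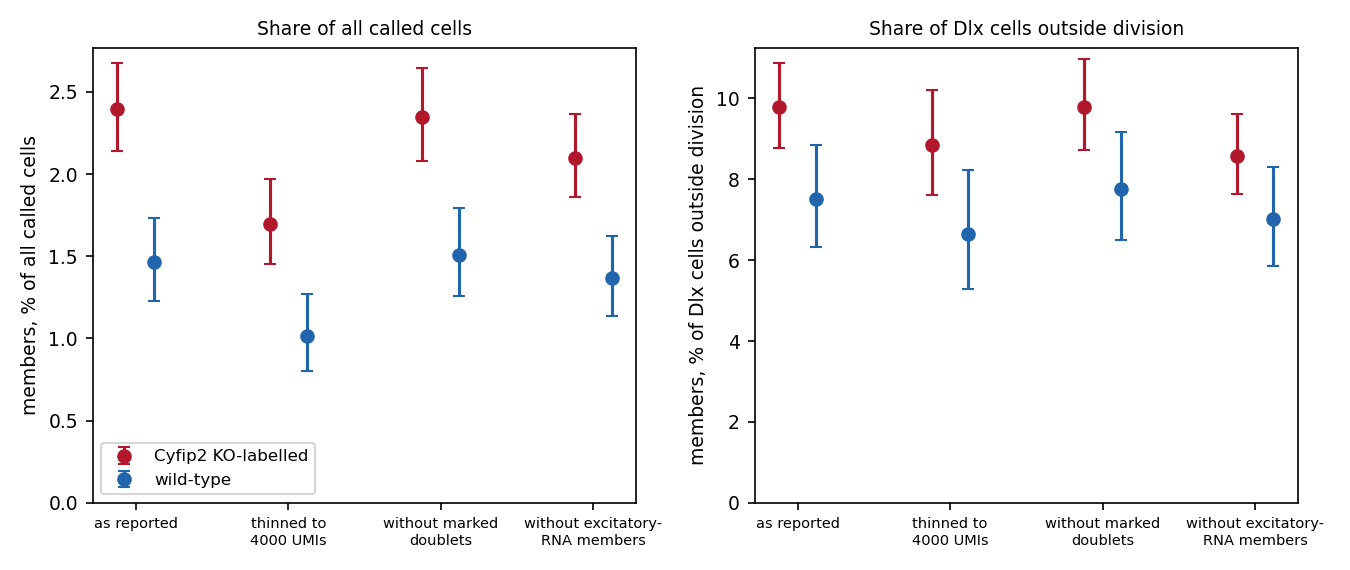
Members as a percent of all called cells (left) and of Dlx cells outside division (right), in the Cyfip2 KO-labelled (red) and wild-type (blue) libraries, with exact 95% binomial intervals that cover counting error only. In each of the 4 settings the KO-labelled share lies above the wild-type share, at 2.40% against 1.46% and at 9.80% against 7.52% as reported.

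Cyfip2, the targeted gene, was not lower in the members of the library labelled knockout. The gene spans chr11:46193850-46312859 (GRCm38, minus strand) and encodes a subunit of the WAVE complex that links Rac to branched actin. It was at 90.3 CPM (215 UMIs) in knockout-labelled and 59.8 CPM (59 UMIs) in wild-type members, a log2 ratio of 0.59 (0.17 to 1.03). In Sp8-only members it was at 87.4 CPM in the knockout-labelled and 65.4 CPM in the wild-type library, in members with both RNAs at 92.2 CPM in the knockout-labelled and 69.7 CPM in the wild-type library, and in Tshz1-only members at 90.4 CPM in the knockout-labelled and 53.2 CPM in the wild-type library. The log2 ratio was 0.77 (0.17 to 1.40) in Tshz1-only members and 0.40 (-0.20 to 1.05) in all members with a Sp8 UMI. Over members without the Scrublet-marked cells it was 0.57 (0.13 to 1.04), just short of the size used for calls. Barcodes under 100 UMIs, which hold free RNA, had 73.4 CPM in the knockout-labelled and 76.3 CPM in the wild-type library. A tag outside the deleted part checks nothing, so the genotype rests on the label.

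The remaining genes of the WAVE complex did not pass the size rule. Genes reaching 20 CPM in 1 of the libraries and 100 counts over both were measured. A measured gene was called where its libraries differed by 1.5-fold or more (0.58 on the log2 scale) and the counting interval left out 0. None of 6 measured WAVE genes besides Cyfip2 was called, and their median log2 ratio was 0.10. Over all measured genes 2.88% were called higher and 1.83% lower. Few calls in lists this short, here and for the actin regulators below, therefore say little about the lists. Cyfip1, the paralogue of Cyfip2, was at 31.5 CPM in the knockout-labelled and 37.5 CPM in the wild-type library (-0.25, -0.84 to 0.36). Nckap1, the partner of Cyfip proteins in the complex, was at 68.8 CPM in the knockout-labelled and 49.7 CPM in the wild-type library (0.47, 0.00 to 0.96). Of 36 measured actin regulators 1 was lower, the kinase gene Pak3, at 128 CPM in the knockout-labelled and 200 CPM in the wild-type library (-0.64, -0.90 to -0.38), and 0 were higher.

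Over all 5182 measured genes, 149 (2.88%) were higher and 95 (1.83%) were lower in the knockout-labelled members, with a median log2 ratio of -0.01. Leaving aside haemoglobin genes and unnamed transcripts, the 12 largest ratios were of Zic4, Bhlhe22, Nrp2, Tenm1, Npy, Zic1, Nrp1, Fut9, Fat3, Ppp2r2b, Elmod1 and Pcdh17, from 2.80 to 1.29. Among the 12 smallest were those of Fabp7, Efhd2, Sema5a, Mvk, Syt4, Insig1, Dleu7, Eml5, Tmem123, Gart and Sox1ot, from -1.70 to -0.84. Restricted to Tshz1-only members, 152 of 3344 measured genes were higher and 121 lower, of which 69 and 24 were also called over all members. Restricted to members with a Sp8 UMI, 77 of 2621 measured genes were higher and 52 lower, of which 18 and 9 were also called over all members. Fewer genes passed the count filter in each of these parts than over all members, so the overlaps do not measure disagreement.

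**Figure D3:**
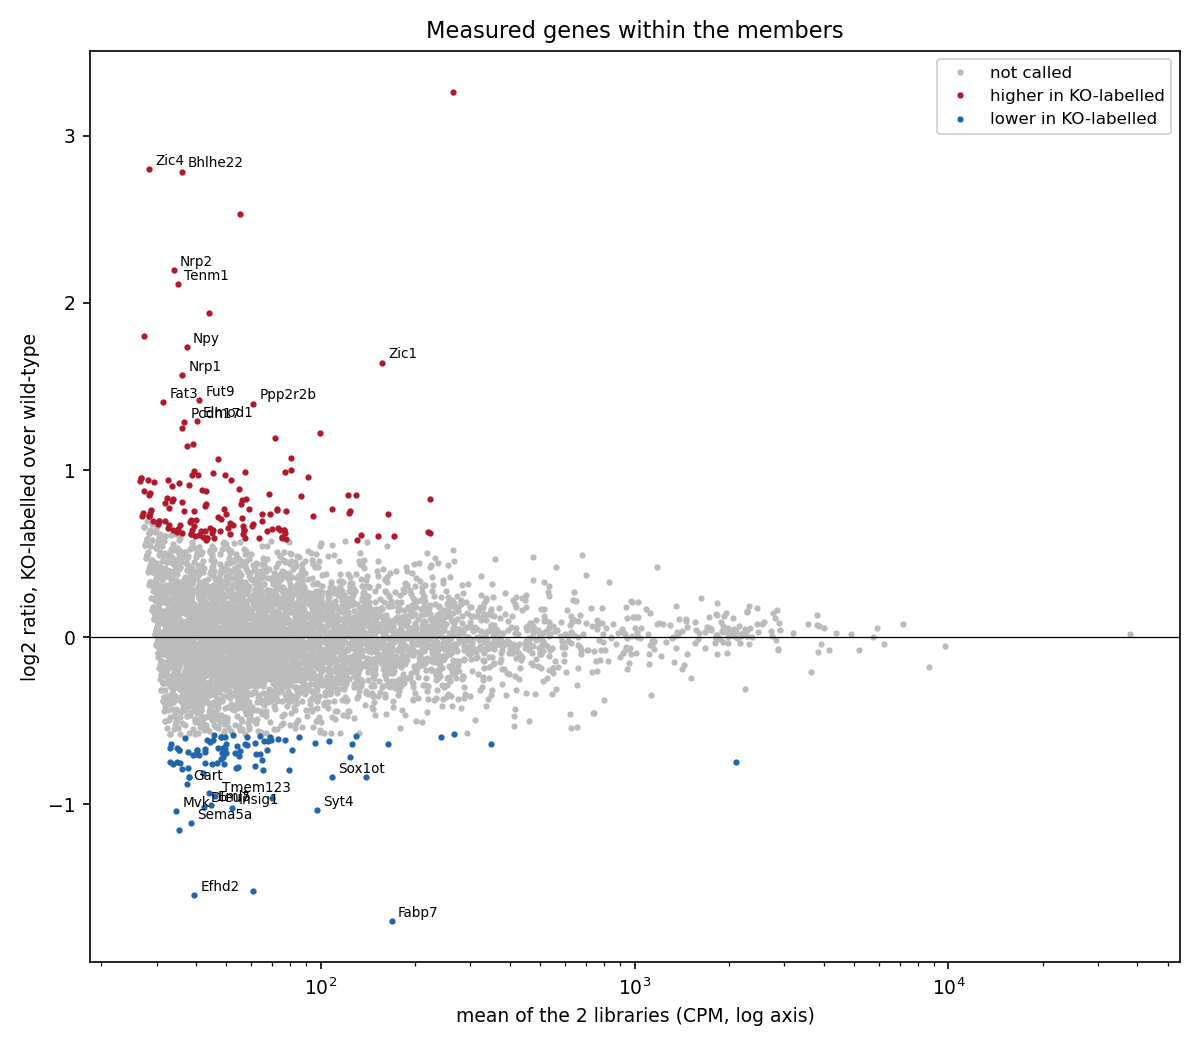
Log2 ratio of the Cyfip2 KO-labelled over the wild-type library for each measured gene within the members (vertical axis) against the mean level of both libraries in CPM (horizontal axis, log scale). Red points are the 149 genes called higher, blue points the 95 called lower, and names mark the genes listed in the text as having the largest and smallest ratios. Most points lie around 0, and Zic4 and Bhlhe22 at one end and Fabp7 and Efhd2 at the other lie farthest from it among the named genes.

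Zic genes, zinc finger factors known from the septum and from part of the olfactory interneurons, were higher in the knockout-labelled members. Zic1 was at 238 CPM (566 UMIs) in knockout-labelled and 76.0 CPM (75 UMIs) in wild-type members, a log2 ratio of 1.64 (1.29 to 2.01). In Sp8-only members it was at 727 CPM in the knockout-labelled and 125 CPM in the wild-type library, in members with both RNAs at 259 CPM in the knockout-labelled and 180 CPM in the wild-type library, and in Tshz1-only members at 56.8 CPM in the knockout-labelled and 9.16 CPM in the wild-type library. The log2 ratio of Zic1 was 1.56 (1.20 to 1.95) in Sp8-bearing and 2.63 (1.35 to 4.29) in Tshz1-only members. All 21 wild-type Sp8-only UMIs of Zic1 came from 1 cell, as did 28 of the 49 in wild-type members with both RNAs. Zic4 was at 49.5 CPM in the knockout-labelled and 7.10 CPM in the wild-type library (2.80, 1.72 to 4.15). In Sp8-only members Zic4 had 79 UMIs in the knockout-labelled and 0 in the wild-type library, at least 9.44-fold higher against a floor of 3 counts over that wild-type arm. Zic1 did not move this way in every related group. In Isl1 Ebf1 cells it was not higher, at 159 CPM in the knockout-labelled and 193 CPM in the wild-type library. Prox1 Adarb2 cells went the same way as the members, at 185 CPM in the knockout-labelled and 97.4 CPM in the wild-type library. Free RNA in barcodes under 100 UMIs held Zic1 at 61.1 CPM in the knockout-labelled and 39.7 CPM in the wild-type library.

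More of the knockout-labelled members carried Zic RNA. Cells with at least 2 UMIs of Zic1 to Zic5 together were 31 of 58 (53.4%) Sp8-only members in the knockout-labelled library and 1 of 22 (4.55%) in wild type. They were 20 of 81 (24.7%) and 3 of 35 (8.57%) of members with both RNAs, and 11 of 169 (6.51%) and 1 of 76 (1.32%) of Tshz1-only members. Of the 62 Zic-bearing knockout-labelled members, 9 were marked by Scrublet. With each member thinned to 2000 UMIs, the cells with a Zic1 UMI were 28.6% of Sp8-bearing members in the knockout-labelled library and 5.45% in wild type, and 42.4% and 8.77% unthinned. Excitatory cells, taken as the background of free RNA, had a Zic1 UMI in 6.58% of knockout-labelled and 4.30% of wild-type thinned cells, and in 16.4% and 12.1% unthinned, at medians of 9396 and 11277 UMIs. The knockout-labelled share of Sp8-bearing members lay above that background, and the wild-type share near it.

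Sp8-bearing cells with and without Zic RNA differed in other genes as well, but they also differed in arm. Zic-bearing cells were 31 of 58 Sp8-only and 20 of 81 members with both RNAs in the knockout-labelled library. Between those 2 arms, Six3 was at 42.6 CPM in Sp8-only members and 386 CPM in members with both RNAs. Penk had 0 and 39 UMIs there. Zic RNA and arm were not separated in the comparison below. In the knockout-labelled library the 51 Zic-bearing cells had 33.3 CPM of Six3, against 401 CPM in the 88 others. Penk had 1 UMI in the Zic-bearing cells and 38 UMIs in the others, of which 27 came from 1 cell. Meis2, which was part of the rule, had 1670 CPM in Zic-bearing cells and 3487 CPM in the others. Calb2 was at 135 CPM in Zic-bearing cells and 7.10 CPM in the others. The olfactory lineage factors were present in both: Etv1 had 252 CPM in Zic-bearing cells and 353 CPM in the others, and Pax6 had 89.5 and 107 CPM. Wild type had 4 such Zic-bearing cells, too few for a comparison of levels.

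**Figure D4:**
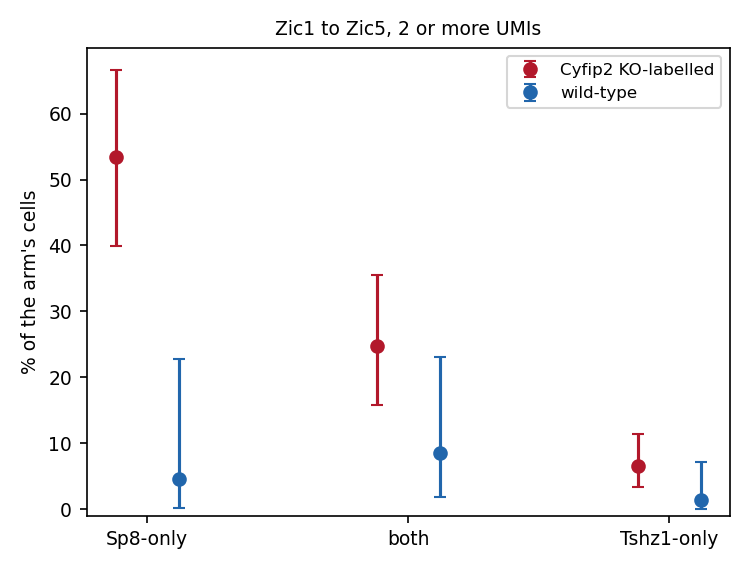
Percent of the cells of each arm with at least 2 UMIs of Zic1 to Zic5, in the Cyfip2 KO-labelled (red) and wild-type (blue) libraries, with exact 95% binomial intervals that cover counting error only. Zic-bearing cells were 53.4% of KO-labelled and 4.55% of wild-type Sp8-only members, and 6.51% of KO-labelled and 1.32% of wild-type Tshz1-only members.

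Zic4 and Zic1 are neighbours on chromosome 9 and are transcribed away from each other from RefSeq start sites 3204 bases apart. Their windows are shown because both RNAs were higher in the knockout-labelled members. In GENCODE M21 the gene bodies, Zic1 from 91358058 to 91365810 on the minus strand and Zic4 from 91362413 to 91389348 on the plus strand, overlap, with the same limit on strand as for Six3. The windows span chr9:91368722-91369021 (plus strand) for Zic4 and chr9:91365719-91366018 (minus strand) for Zic1, drawn and marked as for Six3. The Zic4 window held 1 TGACAG and 0 GC boxes, and the Zic1 window 0 TGACAG and 3 GC boxes.
Zic4: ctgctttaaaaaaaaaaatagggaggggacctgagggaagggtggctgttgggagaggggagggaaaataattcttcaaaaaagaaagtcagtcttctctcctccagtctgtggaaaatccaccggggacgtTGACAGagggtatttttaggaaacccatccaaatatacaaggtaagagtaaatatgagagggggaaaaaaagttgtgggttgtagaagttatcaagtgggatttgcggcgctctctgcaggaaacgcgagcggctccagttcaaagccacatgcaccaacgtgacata
Zic1: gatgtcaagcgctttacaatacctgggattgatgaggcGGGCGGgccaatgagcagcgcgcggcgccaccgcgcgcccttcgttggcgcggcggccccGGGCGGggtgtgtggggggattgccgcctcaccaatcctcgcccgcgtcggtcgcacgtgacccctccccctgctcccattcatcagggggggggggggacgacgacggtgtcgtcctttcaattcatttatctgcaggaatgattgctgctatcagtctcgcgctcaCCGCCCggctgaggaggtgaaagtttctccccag

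Genes that steer migrating neurons and their axons were higher in part. Of 23 measured genes of tangential migration and guidance, 9 were higher in the knockout-labelled members and 0 were lower, with a median log2 ratio of 0.11. The 9 were Robo1, Robo2, Dcc, Epha5, Efnb3, Nrp1, Nrp2, Dab1 and Vldlr. Over all measured genes 2.88% were higher. Shorter lists had larger shares, with 4 of 4 measured blood and choroid plexus genes and 3 of 5 excitatory neuron markers higher. Nrp2, a receptor of class 3 semaphorins, was at 55.8 CPM in the knockout-labelled and 12.2 CPM in the wild-type library (2.20, 1.35 to 3.19), but it was also at 102 CPM in the knockout-labelled and 36.0 CPM in the wild-type library in Isl1 Ebf1 cells, at 57.8 CPM in the knockout-labelled and 27.8 CPM in the wild-type library in Prox1 Adarb2 cells and at 27.1 CPM in the knockout-labelled and 13.1 CPM in the wild-type library in Lhx6 cells. Without the Zic-bearing members the log2 ratio of Nrp2 was 1.26 (0.20 to 2.49). Robo1, a receptor of Slit proteins, was at 139 CPM in the knockout-labelled and 59.8 CPM in the wild-type library (1.22, 0.82 to 1.65). In Isl1 Ebf1 cells Robo1 was at 186 CPM in the knockout-labelled and 165 CPM in the wild-type library, and in Prox1 Adarb2 cells at 125 CPM in the knockout-labelled and 111 CPM in the wild-type library. Robo1 was higher in members with both RNAs, at 118 CPM in the knockout-labelled and 29.3 CPM in the wild-type library, and in Tshz1-only members, at 186 CPM in the knockout-labelled and 77.0 CPM in the wild-type library, and in Sp8-only members it was at 32.0 CPM in the knockout-labelled and 53.5 CPM in the wild-type library. Dcc, a netrin receptor, was at 120 CPM in the knockout-labelled and 61.9 CPM in the wild-type library (0.96, 0.55 to 1.38). Without the members with at least 3 excitatory UMIs, 5 of 21 measured genes of the list were higher (Robo1, Robo2, Dcc, Nrp2 and Vldlr) and 1 was lower. Without the Scrublet-marked cells the log2 ratio was 1.29 (0.84 to 1.77) for Robo1 and 0.94 (0.49 to 1.40) for Dcc, but 0.38 (-0.51 to 1.35) for Nrp1, 0.54 (0.25 to 0.83) for Epha5 and -0.034 (-0.63 to 0.59) for Dab1.

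Excitatory neuron markers were also higher. Of 5 measured, 3 were higher in the knockout-labelled members (Neurod2, Tbr1 and Bhlhe22), with a median log2 ratio of 0.74, and the summed level of the 10 listed genes was 646 CPM in knockout-labelled and 448 CPM in wild-type members. In free RNA the same sum was at 1822 CPM in the knockout-labelled and 2055 CPM in the wild-type library. Bhlhe22, a factor of the bHLH family, was at 63.0 CPM in the knockout-labelled and 9.13 CPM in the wild-type library (2.79, 1.82 to 3.94). Neurod2 was at 154 CPM in the knockout-labelled and 92.3 CPM in the wild-type library (0.74), and without the Scrublet-marked cells its log2 ratio was -0.021. Tbr1 had a log2 ratio of 0.41 (-0.42 to 1.31) without the Scrublet-marked cells. Of 17 measured synaptic and excitability genes, 5 were higher (among them Syt1, Camk2b and Scn3a) and 1 lower (Syt4), with a median log2 ratio of 0.34. Without the Scrublet-marked cells Syt1 had a log2 ratio of 0.74 (0.40 to 1.10), whereas Camk2b had 0.36 (-0.50 to 1.30) and Scn3a 0.55 (0.10 to 1.01), both short of the call. Without members that had any excitatory UMI Syt1 was also short of it, at 0.55 (0.15 to 0.96).

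Progenitor genes were lower in part. Of 5 measured progenitor and radial glia markers, 3 were lower and 0 higher, with Fabp7 and Vim among the lower, with a median log2 ratio of -0.60. Fabp7, a fatty acid binding protein of radial glia, was at 79.3 CPM in the knockout-labelled and 258 CPM in the wild-type library (-1.70, -1.98 to -1.42), but 190 of its 254 wild-type UMIs came from 1 cell. Without the highest cell of each library the log2 ratio of Fabp7 was -0.14 (-0.58 to 0.31). In Tshz1-only members Fabp7 was at 82.9 CPM in the knockout-labelled and 445 CPM in the wild-type library. Vim, an intermediate filament gene of radial glia, was at 192 CPM in the knockout-labelled and 290 CPM in the wild-type library (-0.60, -0.81 to -0.38), and had a log2 ratio of -0.34 (-0.57 to -0.10) without the Scrublet-marked cells, short of the size rule.

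Among 5 measured cell cycle genes outside the rule, Ccnd2 was lower and 0 were higher. Ccnd2 was at 1567 CPM in knockout-labelled and 2632 CPM in wild-type members (-0.75, -0.82 to -0.68), with a log2 ratio of -0.38 (-0.47 to -0.29) among Sp8-bearing members. In Sp8-only members it was at 3776 CPM in the knockout-labelled and 4384 CPM in the wild-type library, in members with both RNAs at 2060 CPM in the knockout-labelled and 3254 CPM in the wild-type library, and in Tshz1-only members at 581 CPM in the knockout-labelled and 1782 CPM in the wild-type library. In Isl1 Ebf1 cells Ccnd2 was at 344 CPM in the knockout-labelled and 213 CPM in the wild-type library, and in Prox1 Adarb2 cells at 1080 CPM in the knockout-labelled and 1114 CPM in the wild-type library.

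Few genes of the lineage lists were called. Of 9 measured genes of the olfactory interneuron list, 1 was lower (Calb2, which rests on the wild-type cell named above) and 0 were higher, with a median log2 ratio of -0.34. Pax6 was at 53.7 CPM in the knockout-labelled and 80.1 CPM in the wild-type library (-0.58, -0.99 to -0.15), at the edge of the size rule. None of 7 genes of GABA identity was called, with a median of -0.28, among them Gad2 at 356 CPM in the knockout-labelled and 479 CPM in the wild-type library (-0.43, -0.59 to -0.26). Meis3 was higher among 6 measured TALE partners, the homeobox genes that work with Meis2, at 47.9 CPM in the knockout-labelled and 31.4 CPM in the wild-type library (0.61, 0.02 to 1.23), and had 0.55 (-0.17 to 1.32) without members that had an excitatory UMI. Tshz2, a relative of Tshz1, was higher at 88.2 CPM in the knockout-labelled and 48.7 CPM in the wild-type library (0.86, 0.40 to 1.34).

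Penk was higher in the knockout-labelled members, at 71.4 CPM in the knockout-labelled and 38.5 CPM in the wild-type library (0.89, 0.37 to 1.44), and 1 of 8 measured striatal markers was higher (Ikzf2), with a list median of 0.13. Ikzf2 had a log2 ratio of 0.62 (-0.15 to 1.45) without the Scrublet-marked cells. Free RNA held Penk at 9.11 CPM in the knockout-labelled and 3.69 CPM in the wild-type library. Without any member that had an excitatory UMI the log2 ratio of Penk was 1.51 (0.91 to 2.15). Six3 was at 617 CPM in the knockout-labelled and 613 CPM in the wild-type library (0.01, -0.13 to 0.15). Foxp2 was at 235 CPM in the knockout-labelled and 350 CPM in the wild-type library (-0.58, -0.77 to -0.38), just short of the size rule.

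Sterol genes were lower in part. Of 11 measured genes of cholesterol biosynthesis, 3 were lower (Sqle, Insig1 and Sc5d) and 0 higher, with a median log2 ratio of -0.28. Without the Scrublet-marked cells Sqle had a log2 ratio of -0.57 (-0.99 to -0.15), just short of the size rule. Insig1, which holds sterol regulators in the endoplasmic reticulum, was at 34.4 CPM in the knockout-labelled and 70.0 CPM in the wild-type library (-1.02, -1.50 to -0.54). In Isl1 Ebf1 cells Insig1 was at 34.8 CPM in the knockout-labelled and 34.2 CPM in the wild-type library. Mvk, a kinase of the mevalonate pathway outside the list, was at 22.7 CPM in the knockout-labelled and 46.6 CPM in the wild-type library (-1.04, -1.64 to -0.44). None of 12 immature neuron genes, 13 protein folding stress genes, 10 glycolysis and hypoxia genes and 12 mitochondrially encoded transcripts was called, and of 9 immediate early genes 1 was lower (Dusp1), which had a log2 ratio of -0.55 (-0.89 to -0.20) without the Scrublet-marked cells.

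Other cell types left few UMIs in the members. No microglial, vascular or oligodendrocyte marker was measured, and no list of them summed to more than 19.7 CPM in knockout-labelled or 13.2 CPM in wild-type members. All 4 measured blood and choroid plexus genes were higher, Hba-a1, Hba-a2, Hbb-bs and Ttr. For Hbb-bs, a haemoglobin gene, 1061 of 1135 knockout-labelled UMIs came from 1 cell marked by Scrublet. Without the Scrublet-marked cells the log2 ratio was -0.35 for Hba-a1, -0.92 for Hba-a2 and -0.67 for Hbb-bs. Ttr, a choroid plexus gene, was at 76.4 CPM in the knockout-labelled and 38.5 CPM in the wild-type library. In free RNA Ttr was at 2070 CPM in the knockout-labelled and 1016 CPM in the wild-type library.

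Several other genes were among those with the largest ratios. Tenm1, a teneurin of synaptic and axonal contacts, was at 57.1 CPM in the knockout-labelled and 13.2 CPM in the wild-type library (2.11, 1.29 to 3.06), but its log2 ratio was 1.08 (-0.21 to 2.63) among Sp8-bearing members alone. Fat3, an atypical cadherin, was at 45.8 CPM in the knockout-labelled and 17.2 CPM in the wild-type library (1.41, 0.66 to 2.24), and the protocadherin gene Pcdh17 was at 52.1 CPM in the knockout-labelled and 21.3 CPM in the wild-type library (1.29, 0.61 to 2.03). Npy, which encodes neuropeptide Y and is a list gene of medial eminence interneurons, was at 57.5 CPM in the knockout-labelled and 17.2 CPM in the wild-type library (1.74), with 52 of its 137 knockout-labelled UMIs in 1 cell. Without the members with at least 3 excitatory UMIs the log2 ratio of Npy was 0.29 (-0.55 to 1.19).

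Efhd2, a calcium-binding protein gene, was at 20.2 CPM in the knockout-labelled and 58.8 CPM in the wild-type library (-1.55, -2.13 to -0.97), and Sema5a, a semaphorin, was at 24.3 CPM in the knockout-labelled and 52.7 CPM in the wild-type library (-1.11, -1.68 to -0.55). Syt4, a synaptotagmin of secretory vesicles, was at 63.8 CPM in the knockout-labelled and 131 CPM in the wild-type library (-1.04, -1.38 to -0.69), but 45 of its 129 wild-type UMIs came from 1 cell and its log2 ratio was 0.73 without the members with at least 3 excitatory UMIs. Sox1ot, a noncoding RNA at the Sox1 locus, was at 77.7 CPM in the knockout-labelled and 139 CPM in the wild-type library (-0.84, -1.17 to -0.51), and had -0.50 (-0.85 to -0.15) without the Scrublet-marked cells.

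**Figure D5:**
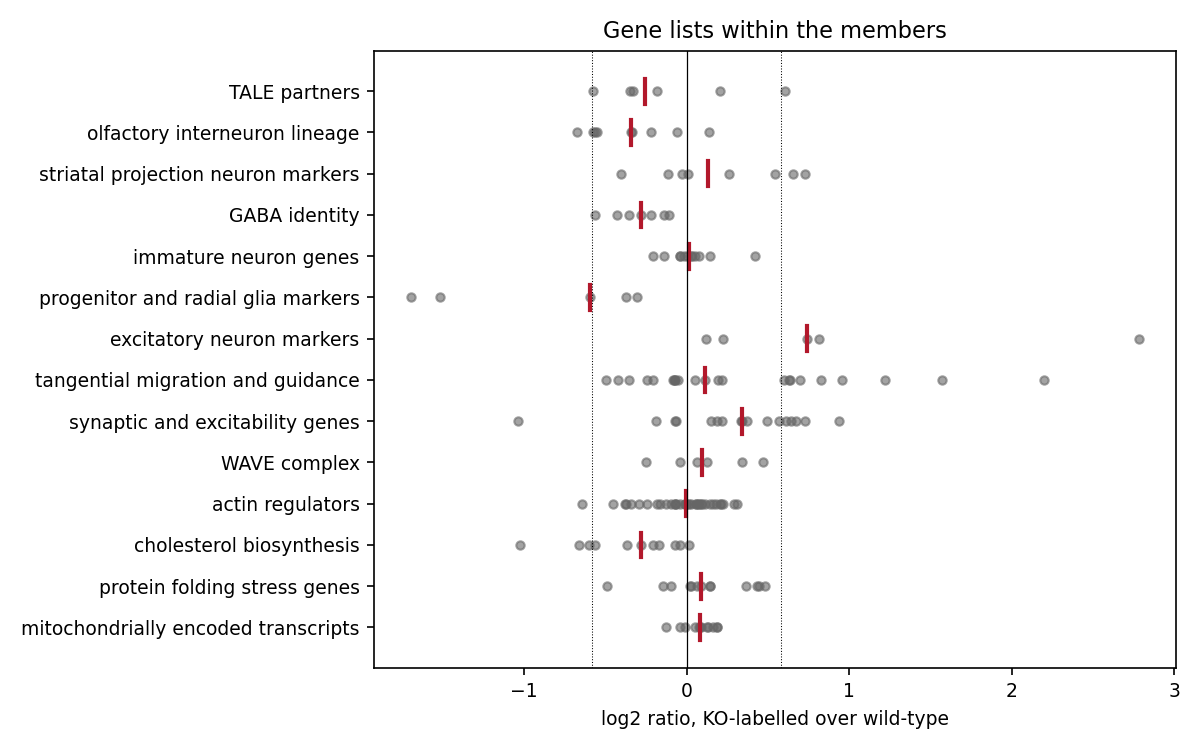
Log2 ratios of the Cyfip2 KO-labelled over the wild-type library within the members, for the measured genes of 14 lists (grey points), with the median of each list as a red bar. Dotted lines mark the 1.5-fold size. The excitatory list lies to the right with a median of 0.74, the progenitor list to the left with -0.60, and immature neuron genes (0.02), WAVE genes (0.10) and actin regulators (0.00) lie around 0.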

How the data were processed

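Single-cell RNA was measured in 2 droplet libraries of mouse forebrain at embryonic day 18.5. The deposited values are raw UMI counts per gene and barcode, the output of Cell Ranger 4 as run by the authors, according to the file headers. The build is mm10 per the submitters' processing notes. Annotation release and strand setting were not given in the sources used here. Of 32285 gene IDs, 32235 were found in GENCODE M21.

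Cells were barcodes of 1000 or more UMIs and 500 or more genes, with up to 10% of UMIs mitochondrial. Doublets were scored with Scrublet (scanpy 1.11.5), and the highest scores were marked at 0.8% per 1000 cells but kept. UMIs were summed per group of cells and scaled to CPM. Ratios have exact 95% intervals (conditional binomial, scipy 1.17.1) and shares exact Clopper-Pearson intervals, both for counting error alone. A gene entered the arm comparison with 20 CPM in 1 of the arms and 30 counts in each library. Excitatory cells had at least 3 UMIs of Neurod2 and Neurod6 and 0 Dlx UMIs. The rules were tested on simulated counts. Genes were named as the 12 largest ratios in each direction, plus the genes of the rule, Cyfip2, Cyfip1 and the lists; unnamed, haemoglobin, mitochondrial and sex-linked transcripts were not ranked. Hbb-bs, which is a list gene, Drd2, Adora2a, Drd1 and Tac1 were described after their values were seen. The members and lists were chosen with earlier results of these data known. Some genes of the lists are not reported here. Start-site windows are from RefSeq. Alternatives covered scaling, filters, doublets, thresholds, depth and mixture of cells, those on Zic and excitatory RNA, on the arms alone and on the highest cell being chosen after seeing the data.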

Additional observations from a re-analysis of the deposited data

Results flagged for a closer look

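The difference between the libraries lay on opposite sides in the 2 kinds of member for 7 genes, each by more than 1.5-fold with counting intervals that leave out 0. The difference between the arms was not tested, since there is 1 library per group. The 7 are given without a share of all genes compared, so their number does not describe the arms as a whole. Values are log2 ratios, knockout-labelled over wild type, in Sp8-bearing members (with or without Tshz1) and then in Tshz1-only members.

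Fabp7, the radial glia gene, had 1.58 in Sp8-bearing and -2.43 in Tshz1-only members, but 46 of the 78 knockout-labelled UMIs behind the first and 190 of the 243 wild-type UMIs behind the second came from 1 cell each, so both values rest largely on single cells. Hmgb2, a chromatin protein of proliferating cells, had 0.77 and -0.74. Ier2, an immediate early gene, had 1.29 and -0.95, with 28 and 22 UMIs in knockout-labelled and wild-type Tshz1-only members. Btg2, another such gene, had 0.6 and -0.87.

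In the other direction, Neurod6, an excitatory neuron factor, had -0.79 in Sp8-bearing and 1.21 in Tshz1-only members. Neurod6 is 1 of the genes by which members with excitatory RNA were counted. Among Tshz1-only members 20 knockout-labelled and 4 wild-type cells had at least 3 such UMIs, and Scrublet marked 14 and 3 of them. Id2, an inhibitor of bHLH factors, had -0.99 and 1.08, with 157 and 313 CPM in Sp8-bearing and 244 and 115 CPM in Tshz1-only members. Hbb-bs, the haemoglobin gene, had -0.88 and 4.41, the second from 1 knockout-labelled cell.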

How the results depend on the processing

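The ratio of member shares kept its direction under every setting run, from 1.54 to 1.67 among all called cells and from 1.22 to 1.33 among Dlx cells. No paired analysis was possible because each group has 1 library. The 149 genes higher and 95 lower became 333 and 335 without the low-count filter and 21 and 12 with at least 300 counts. Among members without any excitatory UMI 87 of 3207 measured genes were higher and 83 lower. Of these, 34 and 29 were also called over all members, so most calls there were of other genes. Sp8-bearing members had 77 higher and 52 lower genes of 2621 measured, with 18 and 9 also called over all members. Another scaling moved the share of higher calls from 61.1% to at most 63.0%. Without each gene's highest cell, a step that takes a larger share of the 133 wild-type than of the 308 knockout-labelled members, 179 were higher and 65 lower. The 25 genes higher in Sp8-only members became 15 with at least 60 counts, and thinned members gave 10 in each direction, where fewer counts pass the filter.

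Single genes changed sign where the cells changed. Among Sp8-bearing members the log2 ratio was 1.58 for Fabp7, -0.021 for Tshz2, -0.54 for Ikzf2, -0.19 for Cnr1, 0.31 for Cyfip1, -1.24 for Hba-a1, -1.66 for Hba-a2 and -0.88 for Hbb-bs. Without the Scrublet-marked cells it was -0.50 for Cnr1, -0.021 for Neurod2, -0.034 for Dab1, -0.35 for Hba-a1, -0.92 for Hba-a2 and -0.67 for Hbb-bs. Without any excitatory UMI it was 0.35 for Syt4 and -0.59 for Hbb-bs, and Syt4 had 0.73 without the members with at least 3. Calb2 had 4.16 under the stricter rule, 1.08 without Zic-bearing members, 1.03 among Tshz1-only members and 3.73 without its highest cells, where Hba-a1, Hba-a2 and Hbb-bs had -0.031, -0.41 and -0.23. Atxn1 had 0.10 between the thinned arms of the knockout-labelled library. The causes were not tested beyond these settings. Cyfip2, at 0.59, fell short of the size rule in several of them, with 0.57 without the Scrublet-marked cells.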
